A study of Gallus gallus with 20 samples.

Results

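Genes that copy DNA and divide the cell were followed in the liver and the breast muscle of KRC chickens, a slow-growing strain, under organic or conventional raising; the muscle sampled was the pectoralis major. They were chosen by name from a list of 44 gene symbols, of which 38 are gene names among the 27170 genes of the deposited table. Of the 6 names that are not, MKI67, RRM2 and PRIM1 match rows without a symbol through the NCBI gene number those rows carry. Values of these 3 rows are given beside the 38 members and enter no count of them, and TYMS, KIF20A and MCM7 were not analysed here. The row named AURKA carries an NCBI gene number that a RefSeq table of the assembly GRCg7b lists as AURKB, so which of the 2 kinases it measures is uncertain.

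The data are RNA sequencing read counts from 4 groups of 5 libraries: liver of organic birds, liver of conventional birds, breast muscle of organic birds and breast muscle of conventional birds. Per the labels, mixed-sex chicks entered at 1 day of age, 125 per system in 5 pens of 25, and were slaughtered at 91 days. Organic birds received feed of organic ingredients only and had an outdoor Ruzi grass pasture from day 21, whereas conventional birds received commercial feed and had no pasture, so feed and pasture cannot be told apart. All groups shared the strain and the poultry house. The pen of a library, its sex, and whether a liver and a muscle library came from 1 bird are not given in the labels, so p-values measure the spread between these libraries.

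Before a cell divides, the MCM helicase is loaded at origins by CDC6 and activated by CDC45 and the GINS complex. Polymerases then copy the strands behind it, held on by the sliding clamp PCNA, which the RFC complex loads. In mitosis cyclin B and CDK1 drive entry, condensin and topoisomerase II compact the chromosomes, BUB1, TTK and MAD2L1 hold division until spindle attachment, and ANLN, ECT2 and KIF23 act in the final cleavage of the cell. In adult muscle the nuclei of fibres have left the cell cycle, and in adult liver most hepatocytes rest outside it. Transcripts of many of these genes in whole tissue are therefore usually scarce and come largely, though not only, from cells in cycle. In whole tissue a smaller number of cycling cells, less RNA per cycling cell and less RNA from resting cells cannot be told apart.

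The depth of the liver libraries was 14065269 to 15175691 counts, apart from 20488526 in organic liver replicate 1, and that of the breast muscle libraries was 12699692 to 13417005 counts. The 38 members together had 2531 to 6808 counts per liver library and 1768 to 4270 per breast muscle library. The mean log2 of CPM, the counts scaled to library size, of hepatocyte markers was 12.75 to 13.46 in the liver libraries, lowest in organic replicate 4. That of muscle fibre markers was 10.68 to 11.96 in the breast muscle libraries, highest in organic replicate 1. The myogenic regulators PAX7, MYF5, MYF6, MYOG and MYMK had 0 counts in every liver library. Of the members, 28 share no position with another listed gene on the build GRCg6a, while MCM5 overlaps HMOX1 on the same strand, CCNE2 overlaps INTS8, SMC4 overlaps TRIM59 and 2 miRNA genes, and NCAPG overlaps LCORL. The sources used here do not say whether reads were assigned by strand, so counts of these 4 genes and of CCNB3, GINS1, NCAPH, PLK1, POLA1 and TTK, which overlap unnamed genes or small RNAs, are less certain.

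In breast muscle most members had lower counts in organic than in conventional birds, but no member passed the test. Of 34 members with enough counts to test (AURKA, CCNE2, CDC6 and GINS2 did not pass the filter on low counts), 27 had a log2 fold change of organic over conventional birds below 0 and 7 above. Among all 12496 genes tested 52% lay below 0. The members' median log2 fold change was -0.56, against -0.01 over all genes tested. With the quasi-likelihood test of edgeR at an adjusted p of 0.05, 0 of 34 members were called, and so was 0% of all genes. At an unadjusted p under 0.05 there were 8 of 34 members, all lower in organic birds, against 7.47% of all genes in either direction and 4.11% lower. DESeq2 called 0.0978% of the genes it tested (15 genes) and 0 members, with 9 members at an unadjusted p under 0.05, and limma called 0 members, with 6 at that p. The 25 members tested that overlap no other gene had a median of -0.56. By role, 9 of 12 replication members lay below 0 with a median of -0.22, and 18 of 22 division members with a median of -0.62.

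The clamp loader subunit RFC4 (chr9:16362069-16373062, minus strand) had the smallest p. It had 6.46, 8.02, 5.77, 6.88 and 8.11 CPM in organic muscle, against 10.6, 10.9, 8.97, 8.4 and 14.6 CPM in conventional muscle. All 5 organic libraries lay below all 5 conventional ones. RFC4 was the only member whose groups did not overlap, and among all genes tested the groups did not overlap for 1.23%, with organic lower for 0.648%. RFC4's log2 fold change was -0.60 ± 0.18 (SE), with an adjusted p of 0.567 by edgeR.

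Of the helicase and origin members 5 of 7 lay below 0, with a median of -0.31, and subunits of the MCM ring lay on both sides of 0. MCM3 (chr3:107541369-107553023, plus strand) had 0.619, 1.82, 1.72, 1.44 and 0.702 CPM in organic muscle, against 3.97, 2.58, 3.07, 1.77 and 2.38 CPM in conventional muscle. MCM5 (chr1:52093781-52114911, minus strand) had 2.56, 3.25, 3, 2.8 and 3.27 CPM in organic muscle, against 7, 5.08, 2.99, 3.83 and 6.02 CPM in conventional muscle. MCM2 (chr12:10137401-10148820, minus strand) had 3.01, 4.09, 4.12, 4.91 and 3.9 CPM in organic muscle, against 7.43, 6.65, 4.57, 4.79 and 5.87 CPM in conventional muscle. For MCM3 and MCM2, 4 of 5 organic libraries lay below every conventional one, and for MCM5 conventional replicate 3 lay within the organic range. The log2 fold changes were -1.11 ± 0.36 for MCM3, -0.74 ± 0.25 for MCM5 and -0.55 ± 0.21 for MCM2, with edgeR adjusted p of 0.567, 0.567 and 0.643. MCM4 and MCM6, subunits of the same ring, were at -0.31 ± 0.17 and 0.14 ± 0.16. Their helicase partners CDC45 and GINS1 were at 0.03 ± 0.34 and -0.25 ± 0.54.

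Among the polymerase, clamp and nucleotide genes PCNA, the clamp itself, had 29.9, 33.6, 26.3, 28.1 and 26 CPM in organic muscle, against 34.6, 28.5, 33.5, 30.1 and 37.1 CPM in conventional muscle, and the groups overlapped, with a log2 fold change of -0.19 ± 0.12. The catalytic polymerase subunit POLA1 was at -0.10 ± 0.18, the clamp loader subunit RFC3 at -0.11 ± 0.27, and RRM1, the large subunit of ribonucleotide reductase, at 0.08 ± 0.14. The small reductase subunit RRM2, matched by NCBI number, had 0.796, 3.71, 1.5, 1.36 and 1.4 CPM in organic muscle, against 4.11, 2.79, 2.24, 2.14 and 2.08 CPM in conventional muscle. Organic replicate 2 stood within the conventional range and the other 4 organic libraries below it, with a log2 fold change of -0.60 ± 0.39. PRIM1, the catalytic subunit of primase, was at -0.25 ± 0.20.

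**Figure D1:**
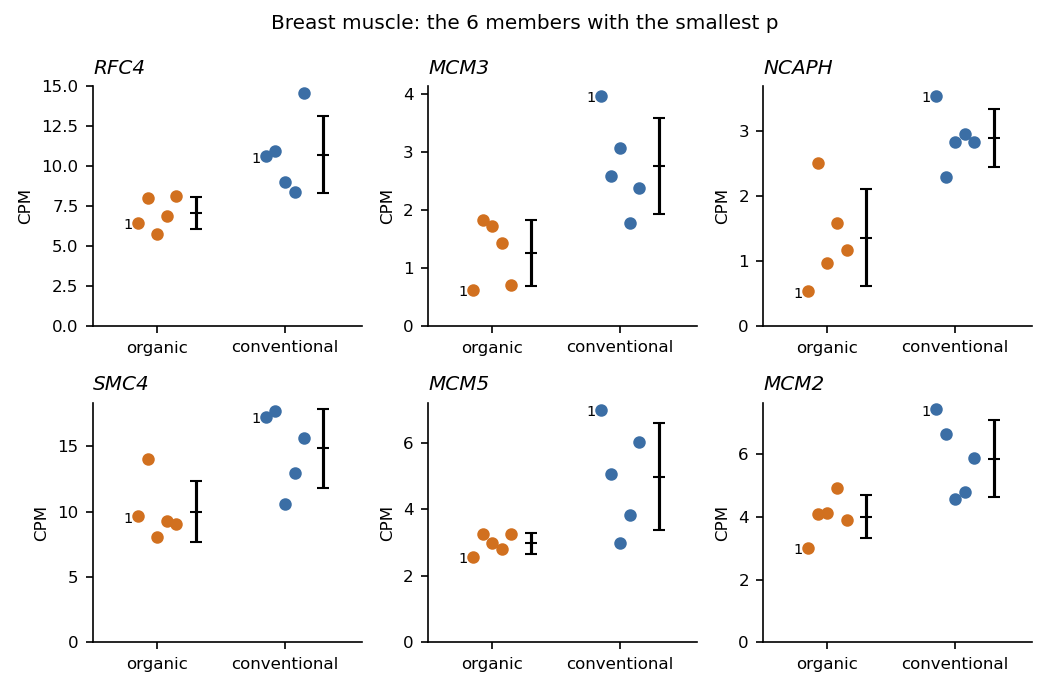
CPM of the 6 members with the smallest p in breast muscle; each point is 1 library of organic (left) or conventional (right) birds, the numeral 1 marks replicate 1 of each group, and the bars give the mean ± SD of 5 libraries. RFC4 is the panel in which the groups do not overlap; in the others 1 or more organic libraries reach the conventional range.

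Among the genes of mitosis, all 5 members of chromosome structure had a log2 fold change below 0 in muscle, with a median of -0.64. The condensin subunit NCAPH (chr22:3971808-3982438, plus strand) had 0.531, 2.5, 0.974, 1.59 and 1.17 CPM in organic muscle, against 3.53, 2.29, 2.82, 2.95 and 2.82 CPM in conventional muscle. The condensin ATPase SMC4 (chr9:22313604-22345248, minus strand) had 9.64, 14, 8.09, 9.3 and 9.04 CPM in organic muscle, against 17.2, 17.7, 10.6, 13 and 15.7 CPM in conventional muscle. In both genes organic replicate 2 was the one organic library inside the conventional range, and the log2 fold changes were -1.08 ± 0.35 and -0.57 ± 0.19, with edgeR adjusted p of 0.567 and 0.567. The partner subunits SMC2 and NCAPG were at -0.69 ± 0.37 and -0.50 ± 0.34. TOP2A, topoisomerase II, had 2.03, 9.08, 7.34, 5.21 and 5.54 CPM in organic muscle, against 17.5, 7.87, 7.97, 5.23 and 7.21 CPM in conventional muscle. Conventional replicate 1 was far above the other 9 libraries, which overlapped, and the log2 fold change was -0.64 ± 0.38. The proliferation marker MKI67, matched by NCBI number, had 2.74, 10.5, 3.59, 4.08 and 5.54 CPM in organic muscle, against 10.7, 8.01, 6.31, 5.38 and 5.57 CPM in conventional muscle, and organic replicate 2 and conventional replicate 1 were highest, with a log2 fold change of -0.44 ± 0.34.

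Of the cyclin members tested 3 of 4 lay below 0 in muscle. CDK1, the mitotic kinase, had 0.442, 4.01, 2.62, 1.36 and 3.2 CPM in organic muscle, against 8.94, 2.93, 4.65, 1.99 and 3.64 CPM in conventional muscle. CCNB3, a B-type cyclin, had 1.15, 1.82, 0.974, 1.06 and 1.64 CPM in organic muscle, against 5.41, 1.93, 1.99, 0.663 and 1.49 CPM in conventional muscle. In both genes conventional replicate 1 was the highest library and the other 9 overlapped, with log2 fold changes of -0.92 ± 0.51 and -0.79 ± 0.47, and CCNB2 was at -0.40 ± 0.28. CCNA2, the cyclin of S phase and early mitosis, had 7.16, 14.5, 11.2, 7.33 and 13 CPM in organic muscle, against 10.2, 8.51, 5.81, 7.15 and 8.77 CPM in conventional muscle. Organic replicates 2, 3 and 5 lay above every conventional library, and its log2 fold change of 0.40 ± 0.23 was the highest of the 34 members tested (edgeR adjusted p = 0.696).

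For CDC20, the activator of the anaphase-promoting complex, the levels were 0.354, 1.82, 1.87, 1.21 and 1.25 CPM in organic muscle, against 4.04, 2.07, 0.997, 1.25 and 1.26 CPM in conventional muscle. Conventional replicate 1 was highest, organic replicate 1 lowest, and the other libraries overlapped (log2 fold change -0.56 ± 0.47). The checkpoint kinase BUB1 was at -0.59 ± 0.44, whereas the kinase TTK and MAD2L1 were at 0.01 ± 0.29 and 0.05 ± 0.28. Of the 6 spindle and centromere members tested 5 lay below 0, with a median of -0.62: the mitotic kinase PLK1 was at -0.84 ± 0.35, the kinetochore proteins CENPF and CENPE at -0.71 ± 0.42 and -0.60 ± 0.54, and the spindle proteins NUSAP1 and TPX2 at -0.64 ± 0.39 and -0.37 ± 0.25. The spindle motor KIF11 was at 0.24 ± 0.30. All 3 cytokinesis members lay below 0, with a median of -0.84. ANLN, the actin-binding anillin, had 0.354, 3.41, 1.27, 0.907 and 1.25 CPM in organic muscle, against 4.18, 2.43, 2.82, 2.36 and 1.19 CPM in conventional muscle, with organic replicate 2 the second highest of the 10 libraries and a log2 fold change of -0.84 ± 0.49. ECT2, which activates the GTPase of the contractile ring, was at -0.98 ± 0.47, and the midzone kinesin KIF23 at -0.66 ± 0.29.

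The muscle values moved with 2 libraries. Conventional replicate 1 had the highest CPM for 21 of 34 members, and organic replicate 1 the lowest for 19 of 34. The mean log2 CPM of the 34 members was 1.23 in organic replicate 1 and 1.85 to 2.28 in the other organic libraries, against 2.80 in conventional replicate 1 and 1.96 to 2.24 in the other conventional libraries. Without conventional replicate 1 the median log2 fold change was -0.27, and without organic replicate 1 it was -0.34. Without both it was -0.12, with 25 members below 0 and 9 above. These were the highest conventional and the lowest organic library in mean log2 CPM, so leaving them out had to make the difference smaller. By edgeR 4 of 34 members then had an unadjusted p under 0.05. Of these RFC4, NCAPH and SMC4 were lower in organic birds and CCNA2 was higher, at 0.60. RFC4 was then at -0.57, NCAPH at -0.80, MCM3 at -0.78, MCM5 at -0.54 and SMC4 at -0.50. TOP2A was at -0.06, CDK1 at -0.24, BUB1 at -0.08, SMC2 at -0.12 and CENPF at -0.03.

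Conventional muscle replicate 1 also stood apart in markers of slow muscle fibres. The mean log2 CPM of the 5 slow-fibre markers tested was 3.30 to 5.78 in organic muscle, against 8.11 in conventional replicate 1 and 3.70 to 4.98 in the other 4 conventional libraries. Of these 5 markers 4 had a log2 fold change below 0. MYH7B, a slow myosin heavy chain, had 0.177 to 30.4 CPM in organic muscle, against 430 CPM in conventional replicate 1 and 0.787 to 5.32 CPM in the other conventional libraries. The oxygen store MB had 0.442 to 6.78 CPM in organic muscle, against 77.9 CPM in conventional replicate 1 and 0.429 to 6.34 CPM in the other conventional libraries. The summed slow-fibre level, which TNNC1 dominates, was 5471 to 7570 CPM in organic muscle and 4920 to 7224 CPM in conventional muscle, and no slow-fibre marker was at 0 throughout. Of 13 endothelial markers 12 had a log2 fold change below 0, with a median of -0.33 and a summed level of 450 to 633 CPM in organic and 471 to 756 CPM in conventional muscle, none at 0. Of 13 markers of satellite cells and myoblasts, the precursors of fibres, 8 lay below 0, with a median of -0.17 and none at 0. Their log2 fold changes ran from -1.23 to 0.37. By edgeR 3 of these 13 and 2 of the 13 endothelial markers had an unadjusted p under 0.05, against 7.47% of all genes, and 0 were called. The summed level of satellite cell and myoblast markers was 2882 to 4713 CPM in organic and 2139 to 4487 CPM in conventional muscle. The mean log2 CPM of this list was only 4.01 to 4.77 in organic and 4.36 to 4.91 in conventional muscle, so a few abundant markers make up most of the sum. Organic replicate 1 stood at an end of several lists. Its mean log2 CPM of muscle fibre markers, 11.96, was the highest of the muscle libraries. For endothelial (4.01), satellite cell and myoblast (4.01) and fibroblast markers (6.68, next 6.70) it was the lowest. Its macrophage mean, 2.52, and its erythroid mean, 3.61, were the lowest of the organic muscle libraries. Among the conventional muscle libraries only replicate 3 was lower in these lists. Its T cell mean, 1.39, lay within the range of the other organic muscle libraries. Conventional replicate 1 had the highest endothelial mean, 4.85. Without replicate 1 of both groups the endothelial median was -0.15, with 10 of 13 markers below 0, and the members' median was the -0.12 given above. Markers of other cells were split or more often above 0 in the full fit. Above 0 were 7 of 12 fibroblast, 6 of 11 macrophage, 5 of 9 T cell and 4 of 6 erythroid markers. The part of these cell types in the members' values was not tested.

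**Figure D2:**
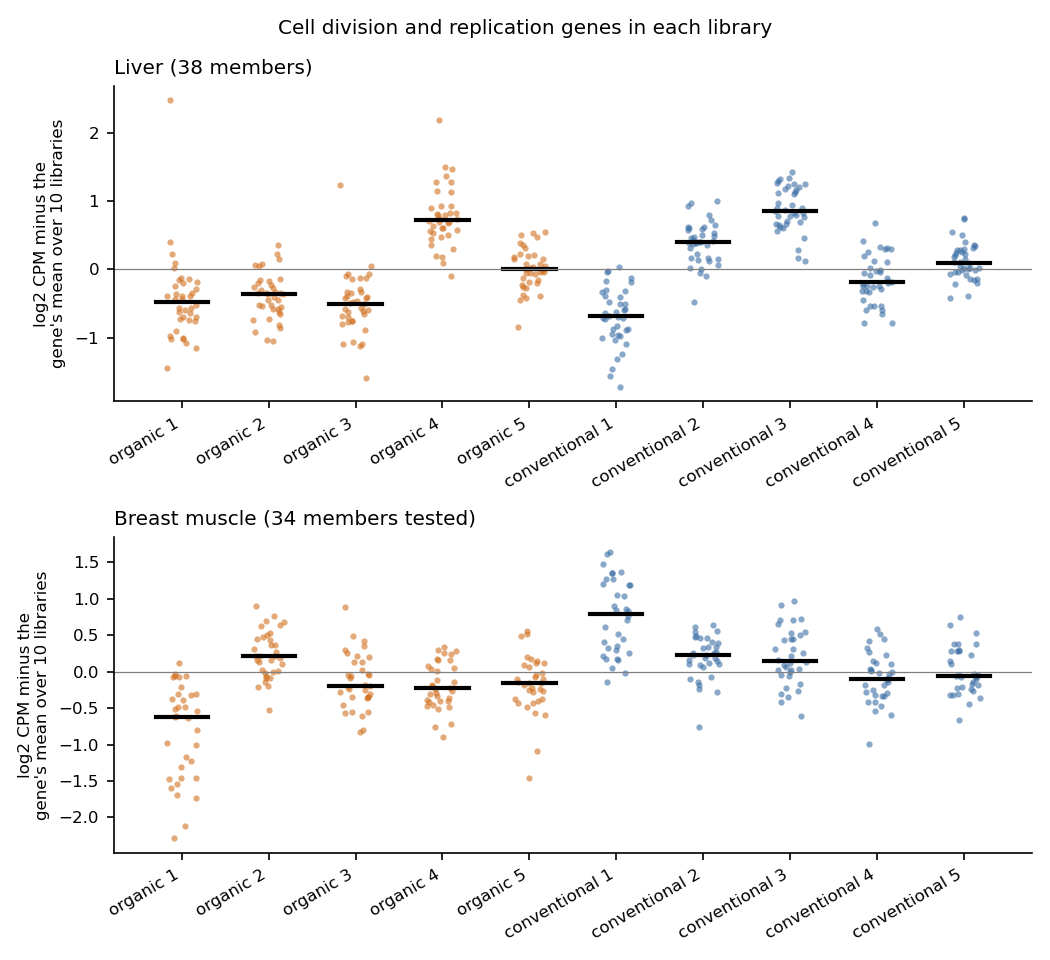
Log2 CPM of each member minus its mean over the 10 libraries of the tissue, by library, with organic libraries on the left and conventional ones on the right; each point is 1 member and the bar is the median. In liver, organic replicate 4 and conventional replicate 3 sit high and conventional replicate 1 low for nearly all members, and in breast muscle conventional replicate 1 sits high and organic replicate 1 low.

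Other genes of the same pathways were read in the same fit. Of 34 further genes of mitosis tested in breast muscle, 32 had a log2 fold change below 0, with a median of -0.56, and 7 had an unadjusted p under 0.05, where 52% and 7.47% of all genes did. The list moved with the same 2 libraries as the members: its median was -0.38 without organic replicate 1, -0.35 without conventional replicate 1 and -0.19 without both, with 29 of 35 tested below 0 and 3 at that p. The 3 with the smallest p were ESPL1, the protease that opens cohesin, at -0.79 ± 0.23, the chromokinesin KIF4A at -1.0 ± 0.30 and the kinetochore protein DSN1 at -0.34 ± 0.12. In each all organic libraries lay below all conventional ones, as they did for 0.648% of all genes tested. Picking genes by their small p favours such a gap. Of 34 further replication genes 25 lay below 0 with a median of -0.11, among them the polymerase epsilon subunit POLE2 at -0.43 ± 0.17 and the primase subunit PRIM2 at -0.64 ± 0.26. The organic libraries of POLE2 also lay below all conventional ones. Of 34 regulators of the cycle 23 lay below 0 with a median of -0.11. The G1 cyclin CCND3 was at 0.41 ± 0.12, the S phase kinase CDK2 at -0.74 ± 0.31 and the retinoblastoma gene RB1 at -0.30 ± 0.15. None of these genes was called by edgeR in breast muscle, the smallest adjusted p being 0.567.

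In liver the members were also below 0 more often than above, with no member past the test. Of 38 members tested 31 had a log2 fold change below 0 and 7 above, against 52.3% of all 13186 genes tested below 0. The median was -0.27, against -0.01 over all genes. By edgeR 0 of 38 members were called, as was 0% of all genes, and 0 of 38 members had an unadjusted p under 0.05, which 7.56% of all genes had. DESeq2 called 0.208% of the genes it tested (31 genes) and 0 members, limma called 0 members, and both had 0 members at an unadjusted p under 0.05. The groups overlapped for all 38 members, and among all genes tested they did not overlap for 1.21%.

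The members were high or low together in single livers of both groups. The mean log2 CPM of the 38 members was 3.08 in organic replicate 4 and 1.81 to 2.32 in the other organic livers, against 3.20 in conventional replicate 3, 1.62 in conventional replicate 1 and 2.16 to 2.70 in the other 3 conventional livers. Organic replicate 4 was above the 10-library mean for 37 of 38 members and conventional replicate 3 for 38 of 38, while conventional replicate 1 was below it for 37 of 38. The summed level of the 38 members spanned 181 to 447 CPM over the 10 livers, a ratio of 2.47 between the highest and the lowest. The coefficient of variation of FPKM between the 5 libraries of a group had a median over members of 49.0% in organic and 44.9% in conventional liver, against 23.5% and 19.0% over all genes tested. In breast muscle the medians were 36.1% and 33.5%, against 21.6% and 22.1%. The muscle medians cover all 38 members, with AURKA, CCNE2, CDC6 and GINS2 included, which failed the low-count filter there. Scarce genes vary more between libraries through counting alone, and the members were scarcer than the genes tested. The part of counting in the members' spread was not tested. Genes matched for level were not compared, so the excess is not shown to be particular to the members. Without organic replicate 4 the median log2 fold change in liver was -0.55 with 36 of 38 members below 0 and 6 at an unadjusted p under 0.05, and without conventional replicate 3 it was -0.07 with 23 of 38 below 0. Without both it was -0.34, with 31 below 0.

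Helicase and nucleotide genes show this spread. MCM3 had 2.73, 2.93, 2.1, 13.5 and 5.52 CPM in organic liver, against 2.79, 7.96, 11.3, 3.91 and 4.25 CPM in conventional liver. MCM5 had 5.4, 3.98, 3.41, 15.6 and 5.71 CPM in organic liver, against 3.57, 7.65, 13.5, 3.83 and 5.36 CPM in conventional liver. In RRM2, matched by NCBI number, the levels were 3.16, 3.08, 1.96, 17.7 and 5.26 CPM in organic liver, against 1.93, 9.91, 20.7, 3.62 and 4.44 CPM in conventional liver. In all 3 genes organic replicate 4 and conventional replicate 3 were the 2 highest livers and the groups overlapped, with log2 fold changes of -0.17 ± 0.54, 0.01 ± 0.47 and -0.38 ± 0.73. PCNA had the same 2 livers highest over a narrower range, with 46.3, 46.1, 39.9, 49.3 and 36.6 CPM in organic liver, against 42.6, 42.2, 47.6, 42.6 and 43.7 CPM in conventional liver. Its log2 fold change of -0.003 ± 0.11 carries an interval of -0.22 to 0.21 (2 SE on either side), the narrowest of the members.

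The 4 members with the smallest p in liver were ECT2, RRM1, CENPE and BUB1. ECT2 had 1.64, 1.8, 1.74, 3.78 and 1.9 CPM in organic liver, against 1.72, 3.45, 5.85, 3.27 and 2.59 CPM in conventional liver, with organic replicate 4 high and conventional replicate 1 low, so that the groups overlapped (-0.63 ± 0.36). RRM1 had 7.3, 12.3, 16.2, 17.9 and 17.4 CPM in organic liver, against 12.6, 23.6, 23.2, 19.3 and 14.7 CPM in conventional liver. Its lowest library was organic replicate 1 and the groups overlapped (-0.40 ± 0.25). CENPE, the kinetochore motor, had 1.58, 1.88, 2.54, 5.93 and 3.3 CPM in organic liver, against 1.79, 6.84, 8.61, 4.33 and 3.39 CPM in conventional liver, with overlapping groups (-0.71 ± 0.45). Adjusted p values by edgeR for these 4 genes were 0.673 to 0.706.

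BUB1 (chr3:3107742-3127503, plus strand) had a pattern of its own in liver, described here without a test. It had 41.5, 3.38, 2.25, 33.9 and 3.93 CPM in organic liver, against 3.64, 5.14, 8.94, 4.12 and 12.5 CPM in conventional liver. Organic replicates 1 and 4 were at 3.33 and 2.72 times the highest of the other 8 livers, and the other 3 organic livers lay below 4 of the 5 conventional ones. Organic replicate 1 was below the 10-library mean for 33 of 38 members while holding the highest BUB1 level. The log2 fold change was 1.31 ± 0.83 (edgeR adjusted p = 0.706), 0.67 without organic replicate 1 and 0.90 without organic replicate 4. Each of these fits keeps the other high liver, and none without both was run, so the sign above 0 rests on these livers. Of its neighbours on chromosome 3, TPCN3, BCL2L11 and ANAPC1 did not show the same pair of high livers and spanned 3.99 to 8.70, 4.36 to 8.77 and 18.2 to 27.6 CPM over the 10 livers. KIF23 was high in another organic liver, with 3.93, 3.16, 14.9, 10.9 and 9.13 CPM in organic liver, against 1.93, 8.21, 13.5, 3.98 and 4.56 CPM in conventional liver (0.38 ± 0.53), and organic replicate 3, otherwise below the 10-library mean for 36 of 38 members, was the highest.

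**Figure D3:**
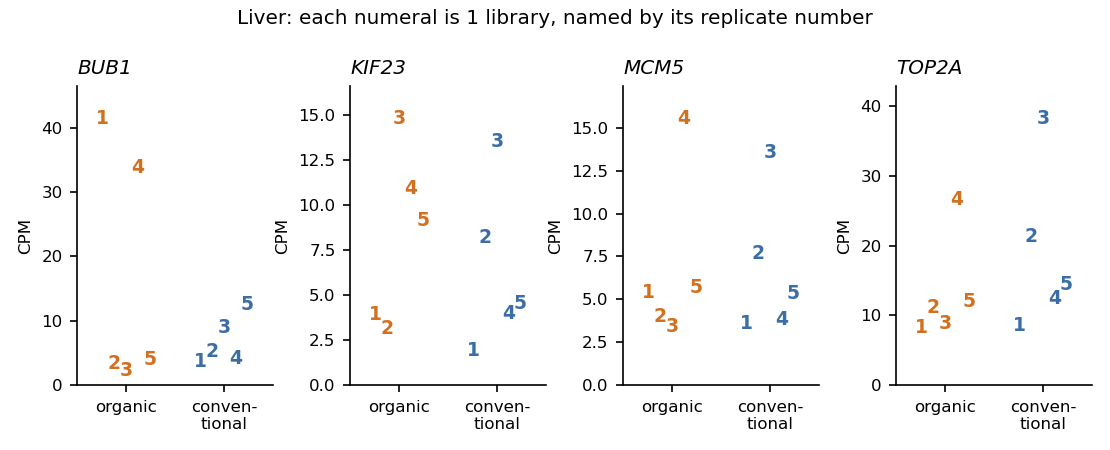
CPM of BUB1, KIF23, MCM5 and TOP2A in liver, organic on the left and conventional on the right of each panel; each numeral is 1 library, named by its replicate number. BUB1 is highest in organic replicates 1 and 4 and KIF23 in organic replicate 3, whereas MCM5 and TOP2A are highest in organic replicate 4 and conventional replicate 3.

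Other mitotic genes were also high in organic replicate 4 or conventional replicate 3. TOP2A had 8.29, 11.1, 8.77, 26.7 and 12 CPM in organic liver, against 8.58, 21.3, 38.3, 12.4 and 14.4 CPM in conventional liver (-0.50 ± 0.43). SMC4 had 10.8, 11.2, 15.7, 25.1 and 17.1 CPM in organic liver, against 10.5, 18.2, 25.2, 15 and 24.2 CPM in conventional liver (-0.22 ± 0.28). MKI67, matched by NCBI number, had 7.41, 8.12, 6.67, 20.9 and 15.6 CPM in organic liver, against 5.93, 17.9, 27.9, 12.6 and 19.2 CPM in conventional liver (-0.51 ± 0.42). Conventional replicate 3 was the highest liver in each of these 3 genes, and the groups overlapped. CDK1 had 5.12, 5.86, 5, 9.59 and 6.98 CPM in organic liver, against 3.36, 13.9, 11.8, 4.62 and 8.01 CPM in conventional liver, with conventional replicate 2 highest (-0.36 ± 0.36). CCNB3 had 1.96, 2.41, 1.88, 5.99 and 3.04 CPM in organic liver, against 1.36, 3.2, 5.13, 4.12 and 4.07 CPM in conventional liver, with organic replicate 4 highest (-0.22 ± 0.40). The groups overlapped in both. In CDC20 the levels were 2.67, 2.63, 2.32, 3.72 and 2.22 CPM in organic liver, against 1.86, 4.08, 5.78, 2.49 and 3.76 CPM in conventional liver (-0.41 ± 0.31), and in ANLN 0.818, 0.451, 0.725, 2.08 and 1.59 CPM in organic liver, against 0.429, 1.63, 2.23, 2.06 and 1.42 CPM in conventional liver (-0.45 ± 0.49). Conventional replicate 3 was again highest in both, and the groups overlapped.

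By role, all 7 spindle and centromere members, all 5 of chromosome structure and all 4 polymerase and clamp members lay below 0 in liver, with medians of -0.44, -0.26 and -0.12. The members above 0 were BUB1, KIF23, CCNE2, GINS2, MCM2, TTK and, by 0.01, MCM5. Of 39 further genes of mitosis 34 lay below 0 with a median of -0.33, where 52.3% of all genes lay below 0. That median was -0.63 without organic replicate 4, -0.08 with 25 of 39 below 0 without conventional replicate 3, and -0.34 without both. The 3 with the smallest p were ESPL1 at -0.87 ± 0.34, the kinesin KIF2C at -0.94 ± 0.42 and the checkpoint kinase BUB1B at -0.70 ± 0.36. Of 36 further replication genes 27 lay below 0 with a median of -0.07, and without conventional replicate 3 the count was 15 of 36 and the median 0.04. The 35 regulators of the cycle were split, 17 below 0 and 18 above, and the G1 cyclin CCND2 was at -0.43 ± 0.14, E2F3, a transcription factor of the G1 to S transition, at -0.80 ± 0.32 and its partner TFDP2 at 0.91 ± 0.41. Markers of other cells were read in the same livers, and edgeR called none of those that follow. All 10 fibroblast markers tested lay below 0, 2 of them at an unadjusted p under 0.05, with a median of -0.40 and a summed level of 300.1 to 524 CPM in organic and 525 to 719 CPM in conventional liver, and 11 of 12 T cell markers lay below 0, with a median of -0.24 and a summed level of 140 to 183 CPM in organic and 128 to 302 CPM in conventional liver. Of 12 endothelial markers 11 lay above 0, with a median of 0.16 and a summed level of 458 to 853 CPM in organic and 486 to 821 CPM in conventional liver, and 6 of 7 erythroid markers lay above 0, with a median of 0.33 and a summed level of 221 to 950.1 CPM in organic and 248 to 624 CPM in conventional liver. Without organic replicate 4 and conventional replicate 3 the endothelial markers were split, 6 above and 6 below 0, with a median of 0.003. T cell markers then lay below 0 for 9 of 12 (median -0.13) and fibroblast markers for 10 of 10 (median -0.27). Erythroid markers lay above 0 for 4 of 6 (median 0.41). No marker of these 4 lists was at 0 throughout, and their part in the members' values was not tested.

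**Figure D4:**
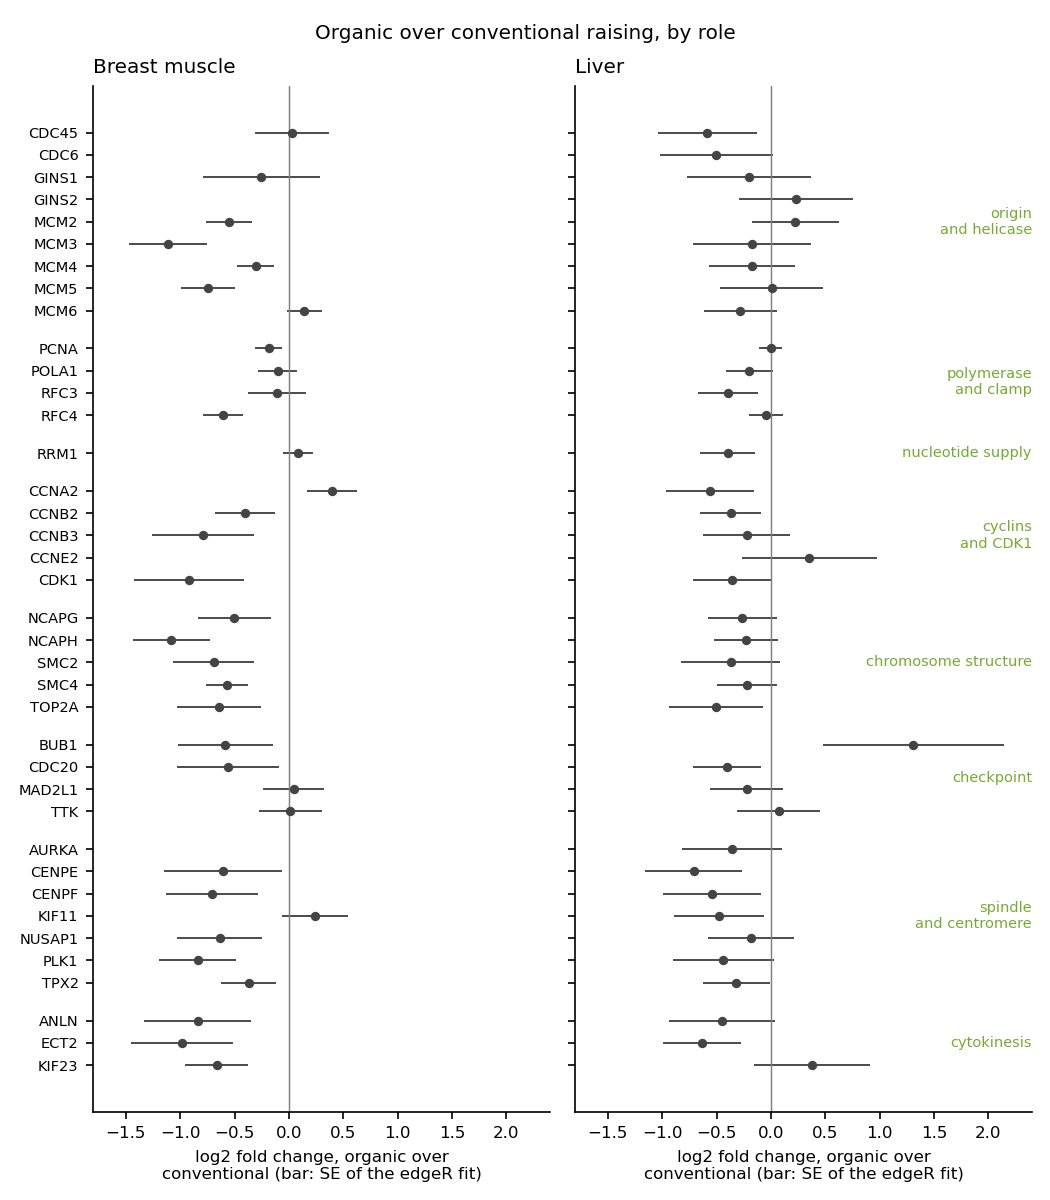
Log2 fold change of organic over conventional birds for each member, by role, in breast muscle (34 members tested) and liver (38). Points are edgeR estimates and bars an SE derived from the F statistic. Most points lie left of 0 in both tissues and no member passed an adjusted p of 0.05.

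Whether the organic difference itself differed between the tissues was tested over all 20 libraries. The value is the log2 fold change in breast muscle minus that in liver, and a negative value means that the ratio of organic to conventional birds was lower in muscle than in liver. By edgeR 0 of 38 members were called, as was 0% of all 14447 genes, and DESeq2 and limma called 0 members. A single member, RFC4, had an unadjusted p under 0.05, against 5.34% of all genes in either direction and 2.69% below 0. DESeq2 had 3 such members, limma 1 and edgeR with the replicate block 0. The RFC4 difference between tissues was -0.56 ± 0.24 (edgeR adjusted p = 0.925), with 7.05 ± 1.01 CPM in organic and 10.7 ± 2.41 CPM in conventional muscle, and 12.1 ± 2.5 CPM in organic and 12.5 ± 1.15 CPM in conventional liver (mean ± SD, n = 5 each). The RFC4 groups overlapped in liver and not in muscle, and the difference between tissues did not pass the adjusted threshold.

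The other 5 members with the smallest p for this difference lay on both sides of 0. CCNA2 was at 0.95 ± 0.47, with 1.74, 3.76, 2.68, 7.13 and 3.61 CPM in organic liver, against 2.72, 6.58, 9.79, 4.12 and 4.69 CPM in conventional liver, where the groups overlapped and its log2 fold change was -0.56 ± 0.40. BUB1 was at -1.91 ± 0.99, NCAPH at -0.86 ± 0.46, MCM2 at -0.77 ± 0.46 and KIF23 at -1.05 ± 0.63. Their adjusted p by edgeR were 0.94 to 0.942. The median over the 38 members was -0.19, against -0.01 over all genes, with 28 below 0 and 10 above, where 51.3% of all genes lay below 0. That split was 19 and 19 without organic liver replicate 4, 20 and 18 without conventional muscle replicate 1, 22 and 16 without organic muscle replicate 1, and 21 and 17 without conventional liver replicate 1. The 38 members here and in the counts of calls above include AURKA, CCNE2, CDC6 and GINS2. These failed the low-count filter in breast muscle and entered the fit only through their counts in liver. Their differences were -0.15 ± 0.67, -0.88 ± 0.88, 0.96 ± 0.76 and -0.41 ± 0.80. The median and the split without them are not given.

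These transcripts were scarce in both tissues. The median over members of the mean FPKM (fragments per length of transcript and library size, the unit for comparing levels between genes) was 1.71 in liver and 1.05 in breast muscle, against 5.89 and 5.93 over the genes tested in each tissue. PCNA was the highest member in both, at 27.9 ± 2.47 FPKM in liver and 21.7 ± 2.51 FPKM in breast muscle (SD, n = 10 each), and the one above 10 FPKM. RFC4 came next in liver at 8.06 ± 1.22 FPKM and RRM1 in breast muscle at 7.81 ± 1.05 FPKM. In liver CDK1, RRM1 and CCNB2 followed at 5.71 ± 2.54, 4.48 ± 1.32 and 4.06 ± 1.39 FPKM, which did not differ beyond their SD. The lowest members were ANLN in liver at 0.374 ± 0.189 FPKM and CCNE2 in breast muscle at 0.152 ± 0.0844 FPKM. Below 1 FPKM there were 8 of 38 members in liver and 16 of 38 in breast muscle. The muscle median and count of members include AURKA, CCNE2, CDC6 and GINS2, which failed the low-count filter there. The 5.93 FPKM covers only genes that passed it, so the muscle sets are not alike.

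Liver and breast muscle were compared over both raising systems. AURKA, CCNE2, CDC6 and GINS2 failed the low-count filter in breast muscle and entered the fit only through their counts in liver, so they are described by level and left out of the counts. Of the 34 members that passed in each tissue 21 were called at an adjusted p of 0.05 by edgeR, 17 higher and 4 lower in liver. Of the 11351 genes that passed in both tissues 79.2% were called, 39.6% higher and 39.6% lower. Of the 34 members 25 lay above 0, against 50.2% of those genes, and the median log2 fold change of liver over breast muscle was 0.49, against 0.01. With AURKA, CCNE2, CDC6 and GINS2 put back, the ranges over the 10 libraries of each tissue overlapped for 38 of 38 members. They did not overlap for 49% of all 14447 genes of the fit. These include genes that did not pass in both tissues, so the sets here are not those of the counts above. The share among the genes that passed in both is not given.

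The member with the largest difference was BUB1, at 2.5 ± 2.96 FPKM in liver and 0.378 ± 0.178 FPKM in breast muscle, a log2 fold change of 2.62 ± 0.50 (edgeR adjusted p = 7.59e-05). The value was 2.28 without organic liver replicate 1 and 2.43 without organic liver replicate 4, with edgeR adjusted p of 0.000166 and 0.000188. Each of these fits keeps the other high liver, and none without both was run, so the size of the difference is uncertain. It was 1.89 by limma and 2.07 with the replicate block. MCM3 was at 1.55 ± 1.05 FPKM in liver and 0.607 ± 0.308 FPKM in breast muscle, a log2 fold change of 1.47 ± 0.34 (edgeR adjusted p = 0.000474). The 4 members left out of the counts held 1 to 20 counts in each breast muscle library. Of these, the origin licensing factor CDC6 was at 0.708 ± 0.422 FPKM in liver and 0.188 ± 0.103 FPKM in breast muscle, and the GINS subunit GINS2 at 1.69 ± 1.05 FPKM in liver and 0.52 ± 0.296 FPKM in breast muscle. The row named AURKA was at 1.16 ± 0.592 FPKM in liver and 0.349 ± 0.184 FPKM in breast muscle, and CCNE2, the G1 to S cyclin, at 0.378 ± 0.284 FPKM in liver and 0.152 ± 0.0844 FPKM in breast muscle.

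**Figure D5:**
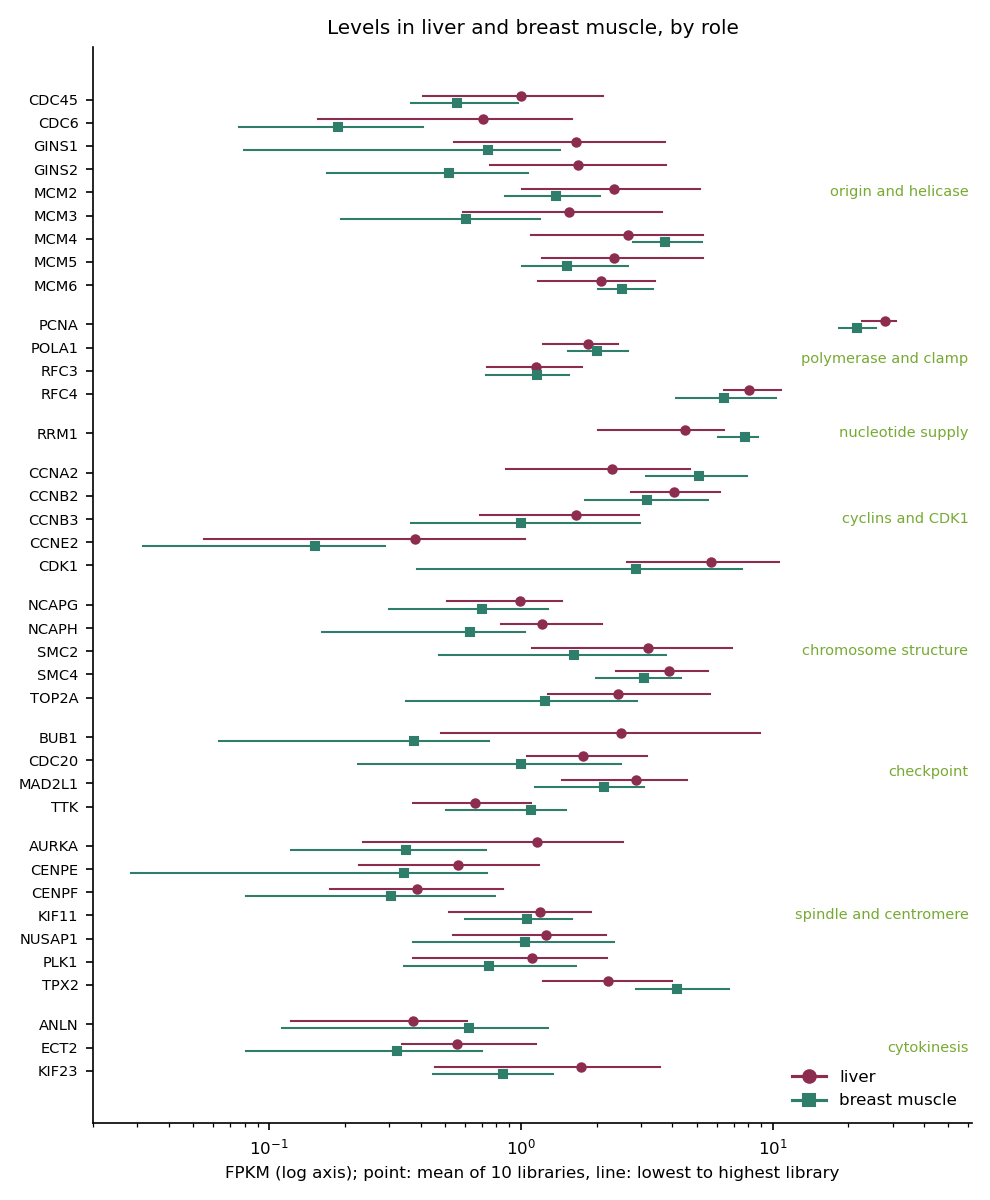
FPKM of each member in liver (circles) and breast muscle (squares), by role, on a log axis; points are means of 10 libraries and lines run from the lowest to the highest library. PCNA lies highest in both tissues, and the lines of the 2 tissues overlap for all 38 members.

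The 4 members that were lower in liver than in breast muscle belong to different steps. CCNA2 was at 2.29 ± 1.17 FPKM in liver and 5.09 ± 1.54 FPKM in breast muscle (-1.14 ± 0.24). TPX2, which activates Aurora A on the spindle, was at 2.21 ± 0.851 FPKM in liver and 4.17 ± 1.4 FPKM in breast muscle (-0.89 ± 0.21). RRM1 was at 4.48 ± 1.32 FPKM in liver and 7.81 ± 1.05 FPKM in breast muscle (-0.79 ± 0.15). The fourth, TTK, was at 0.657 ± 0.261 FPKM in liver and 1.09 ± 0.281 FPKM in breast muscle (-0.72 ± 0.24), and adjusted p by edgeR for the 4 were 3.87e-05 to 0.00875.

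Members of 1 complex did not always share a direction between tissues. The condensin members SMC2, NCAPH, NCAPG and SMC4 all lay above 0, at 1.02 ± 0.31, 1.06 ± 0.23, 0.53 ± 0.24 and 0.37 ± 0.17. Of these SMC4 did not pass the test (edgeR adjusted p = 0.053). In the MCM ring, of which 5 subunits were analysed, MCM3, MCM2 and MCM5 were higher in liver, at 1.47 ± 0.34, 0.81 ± 0.23 and 0.68 ± 0.28, whereas MCM4 at -0.46 ± 0.22 and MCM6 at -0.27 ± 0.19 did not pass the test (edgeR adjusted p = 0.0546 and 0.189). In FPKM the order within the ring was MCM4, MCM2, MCM5, MCM6 and MCM3 in liver, at 2.66 ± 1.27, 2.35 ± 1.19, 2.34 ± 1.45, 2.08 ± 0.848 and 1.55 ± 1.05, where neighbours lay within their SD. In breast muscle it was MCM4, MCM6, MCM5, MCM2 and MCM3, at 3.74 ± 0.709, 2.53 ± 0.371, 1.52 ± 0.567, 1.38 ± 0.364 and 0.607 ± 0.308. Of ribonucleotide reductase, the large subunit RRM1 was lower in liver, while the small subunit RRM2, matched by NCBI number, was higher there, at 3.35 ± 3.11 FPKM in liver and 1.15 ± 0.545 FPKM in breast muscle (1.57 ± 0.43, edgeR adjusted p = 0.00234). PRIM1, also matched by number, was at 7.83 ± 1.3 FPKM in liver and 4.2 ± 0.883 FPKM in breast muscle, and its ranges in the 2 tissues did not overlap.

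Counts by role again cover the genes that passed the filter in both tissues, of which 39.6% were called higher in liver and 39.6% lower. Called higher were 5 of 7 helicase and origin members, 4 of 5 of chromosome structure and 2 of 3 of cytokinesis, and none of these was called lower. Of 6 spindle and centromere members 0 were called higher and 1 lower, and of 4 cyclin members 2 were higher and 1 lower. Of 34 further genes of mitosis 16 were called higher and 1 lower in liver, and of 34 further replication genes 18 higher and 6 lower. The 33 regulators of the cycle, with 11 called higher and 13 lower, lay near the share of all genes. Markers of other cells differed between the tissues as well: all 11 macrophage markers and all 9 T cell markers that passed in both tissues were called higher in liver, and 9 of 10 fibroblast markers and 4 of 6 satellite cell and myoblast markers lower. How far these cell types carry the members' differences between tissues was not tested.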

How the data were processed

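RNA sequencing of 20 libraries, 5 per group, was used. The authors deposited a table of whole-number read counts and FPKM per gene. Alignment and counting are known only in part: HISAT2 2.0.5, DESeq2 1.20.0 and GRCg6a stand in the submitters' processing notes, and no counting tool is named in the sources used here. The deposited FPKM equalled counts over gene length and a library factor that already scales between libraries.

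The count test was edgeR's quasi-likelihood F-test (version 4.0.16, R 4.3.3; robust, TMM scaling, filterByExpr with minimum count 10), within each tissue, and over all 20 libraries for the test between tissues and for liver against breast muscle. P values are two-sided and Benjamini-Hochberg adjusted over all genes tested, with a threshold of 0.05. SE follows ± for log2 fold changes and SD for means. The edgeR test reports no SE, so it was derived as the absolute log2 fold change over the square root of the F statistic. CPM are TMM scaled within the tissue. Marker and member means over log2 CPM add 0.25 CPM. Alternatives were RLE scaling, no filter, DESeq2 1.42.0, limma 3.58.1 on log2(FPKM + 0.1) for genes with a mean FPKM of at least 0.1, a replicate block, 1 fit of all libraries, and leaving libraries out. The tests were run on simulated counts beforehand.

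Members and lists were chosen with earlier results of these data known. Named were the 6 members with the smallest p in breast muscle and between tissues, and 4 in liver. Between liver and muscle up to 6 of the largest changes past the threshold were named each way. A further 12 genes were set to be given in every sample, of which TYMS was not analysed, and 3 genes of each pathway list per tissue were named. Any other member is given by its fold change as part of its role. BUB1's neighbours and MYH7B, MB and TNNC1 were chosen after their values were seen. A planned count of promoter motifs was not run. Some items of the table that these rules select are left unreported.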

Additional observations from a re-analysis of the deposited data

Results flagged for a closer look

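In 108 groups of 5 libraries, the highest or lowest library was tested for a gap to its neighbour above 0.71 of the group's range. The 108 groups do not cover all members, so the flags are not a survey of the whole list. Such gaps numbered 13, where chance flags about 1 in 20 independent groups (5.4). The groups are genes read in the same libraries and are not independent, so 13 against 5.4 does not show an excess over chance. In organic liver, replicate 4 was far above the other 4 libraries for CCNB3 (5.99 CPM), ECT2 (3.78 CPM), MCM5 (15.6 CPM), NCAPH (6.75 CPM), RRM2 (17.7 CPM) and TOP2A (26.7 CPM). In conventional liver, replicate 3 was far above the others for GINS2 (1.97 CPM). It was also flagged for PCNA (47.6 CPM, next 43.7 CPM), where the gap was large only beside the narrow range of the group. In organic muscle, replicate 2 was far above the others for RRM2 (3.71 CPM) and SMC4 (14.0 CPM), and replicate 3 far below them for RRM1 (20.1 CPM). In conventional muscle, replicate 1 was far above the others for CCNB3 (5.41 CPM) and TOP2A (17.5 CPM).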

How the results depend on the processing

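In breast muscle, liver and the test between tissues, 0 members were called under every alternative run. The members' median log2 fold change in breast muscle was -0.12 without organic replicate 1 and conventional replicate 1, where CDC20 turned to 0.13. That pair was the lowest organic and the highest conventional library, so a smaller difference was built into leaving it out. Leaving out each library gave medians of -0.68 to -0.27 with 5 to 8 members above 0 in breast muscle, -0.55 to -0.07 with 2 to 15 above 0 in liver (11 without organic replicate 3), and -0.53 to -0.003 with 8 to 19 above 0 between tissues. For liver against breast muscle it gave 23 to 29 of all 38 members called, medians of 0.48 to 0.76 and 29 to 30 above 0; the 34 members of the text, a restriction to genes passing the filter in both tissues chosen after seeing the data, leave out 4 of the 25 called in the full fit. In liver, log2 fold changes near 0 changed sign: PCNA was at 0.015 with RLE scaling, 0.0052 with no filter, 0.021 with DESeq2, 0.0046 with limma and 0.0093 in the fit of all 20 libraries, and MCM5 at -0.028 with limma, -0.047 with the replicate block and -0.14 without organic replicate 4 and conventional replicate 3, an alternative chosen after seeing the data; the cause was not tested. Leaving out each library moved liver MCM3 from -0.86 to 0.18, MCM5 from -0.55 to 0.42, PCNA from -0.049 to 0.055 and RRM2 from -1.27 to 0.33. Within a tissue, replicate numbers did not pair organic with conventional samples: deviations of same-numbered libraries correlated at -0.178 to 0.152. With the replicate block the medians were -0.54 in breast muscle, -0.27 in liver and -0.27 between tissues, and 24 of all 38 members were called between liver and breast muscle, against 25 without it. Across tissues, same-numbered organic libraries correlated best with each other for 5 of 5 numbers and conventional ones for 4 of 5, a hint from the data and not from the design. Members with few counts have wide intervals, and a p that misses the threshold does not show that values did not differ.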
